A study of Mus musculus with 58 samples.

Results

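Matrix metalloproteinases and their inhibitors were followed as 9 genes, chosen by symbol from 3 tables of raw counts: the membrane-anchored protease gene Mmp14, the secreted protease genes Mmp2, Mmp9 and Mmp12, the disintegrin protease genes Adam8 and Adamts1, and the inhibitor genes Timp1, Timp2 and Timp3. All 9 were listed among the 24940 genes of an age series, 5 of them (Mmp2, Mmp12, Mmp14, Timp2 and Adamts1) among the 10277 genes of a wild-type antisense oligonucleotide (ASO) table, and 6 (these and Timp3) among the 10589 genes of an SgshKO ASO table. PolyA RNA was sequenced from microglia, the resident macrophages of the brain, sorted from the forebrain of C57BL/6 mice as CD11b+, CD45low and CX3CR1+ cells. SgshKO mice carry a knockout of Sgsh, whose product is a lysosomal enzyme of heparan sulfate degradation. The age series held 22 libraries: 3 wild-type (WT) and 4 SgshKO at 3 weeks, 2 and 2 at 4 months, and 4 and 7 at 8 months. The WT mice of the ASO experiment made 5 groups of 4 libraries: PBS, the control ASO (ntc), and ASOs that target Mitf, Tfeb and Tfe3 singly. SgshKO mice received ntc or the Mitf and Tfe3 ASOs in combination, with 8 libraries each. All ASO mice had 1 injection into the cerebral ventricles and were taken 14 days later, and their age is not given in the labels. The labels do not say that each library came from its own animal, so p-values measure the spread between these libraries.

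Matrix metalloproteinases are zinc proteases that cut collagens, gelatin, elastin, proteoglycans and cell-surface proteins. MMP14 is bound to the plasma membrane and activates the MMP2 precursor on the cell surface in a complex that contains TIMP2, whereas at high concentration TIMP2 inhibits MMP14. TIMPs block the active site of the proteases, and TIMP3 stays bound to the matrix and also inhibits several ADAM and ADAMTS enzymes. In the brain these enzymes are known for remodelling the matrix around vessels and synapses, and neutrophils carry MMP9 in their granules.

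The libraries of the age series held 8191508 to 27106584 counts, the WT ASO libraries 14372015 to 30378870 and the SgshKO ASO libraries 12517838 to 30431437. Levels are given as CPM (counts relative to the scaled library size), and a gene was called when its adjusted p in edgeR's quasi-likelihood test, corrected over all genes tested, was below 0.05. All 8 genes used to check the microglial label (P2ry12, Tmem119, Sall1 and others) were present in every library at 427 CPM or more, although 2 of the 8 were lower in SgshKO than in WT at 3 weeks, 6 at 4 months and 6 at 8 months, when 1 was higher. Of all genes tested, 9.03%, 19.5% and 40.5% were called between genotypes at these ages. The 4 libraries of 4 months stood apart: a list of 10 genes that respond to tissue dissociation (Fos, Jun and others) summed to 13016 to 23341 CPM there. Elsewhere in the age series it summed to 3581 to 8797 CPM, apart from SgshKO 3-week replicate 1 at 19288 CPM. In the ASO libraries it summed to 290 to 887 CPM. The choroid plexus list (Ttr, Folr1 and Kl) summed to 874 to 4726 CPM in the 4-month libraries and to 24.6 to 450.4 CPM in the others of the age series. Neutrophil genes (a list of 10, with S100a8 and Ngp) summed to at most 7.33 CPM in WT libraries of any age, and to 1.74 to 28.9 CPM at 3 weeks, 2807 to 13928 CPM at 4 months and 405 to 5463 CPM at 8 months in SgshKO. In WT Ly6g, Elane, Mpo and Retnlg were at 0 at 4 and 8 months; all 10 were detected in both SgshKO 4-month libraries and 8 to 10 in those of 8 months, although the sort gate was set on CD45low and CX3CR1+ cells.

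In the SgshKO libraries, Mmp14 was lower and Timp2 higher than in WT at all 3 ages, and Adam8, Mmp12 and Mmp9 were higher at 4 and 8 months. Which cells of the sorted samples held these transcripts was not tested. At 3 weeks 2 of the 8 members that could be tested were called (1 higher, 1 lower), where 9.03% of all 14309 genes were. At 4 months 6 were called (4 higher, 2 lower; 19.5% of all genes), and at 8 months 5 were (4 higher, 1 lower; 40.5% of all genes). Adamts1 and Timp3 did not pass the test between genotypes at any age, and Timp1 could not be tested. These shares rest on 8 genes, of which the low ones passed the filter on low counts through the groups in which they were high.

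**Figure D1:**
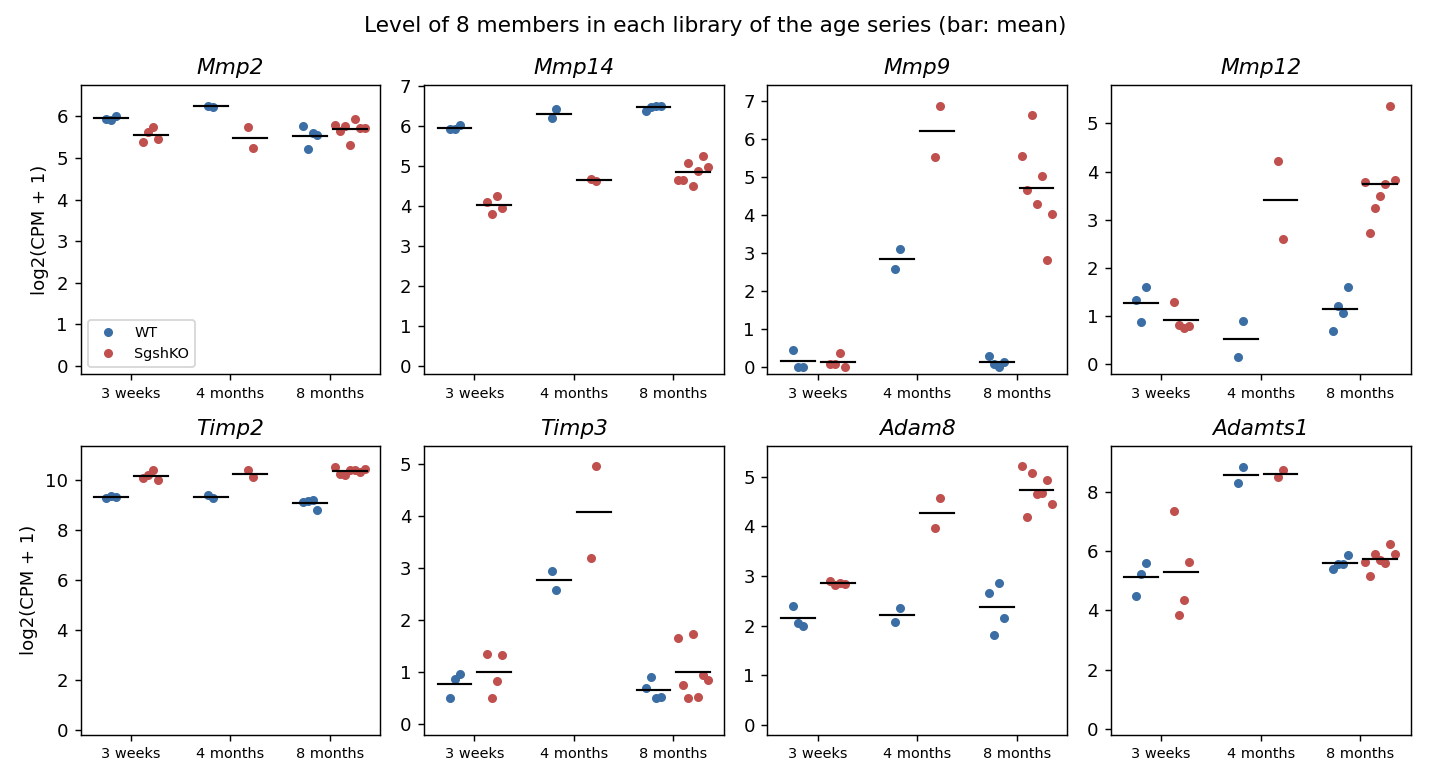
Level of 8 members in each library of the age series, as log2(CPM + 1) on the y axis and age on the x axis; each point is 1 library, WT in blue and SgshKO in red, and bars are group means. Mmp14 and Timp2 separate the genotypes at each age, while Adamts1 and Timp3 are highest in the 4-month libraries of both genotypes.

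The promoters of members that moved apart or together are shown for comparison, as the 90 bases before the transcript start from RefSeq (GRCm38.p6), 5′ to 3′ on the gene's strand. The promoter table matched 7 of the 9 members, and Mmp2 and Mmp9 were not among them. The 250 bases before the start were searched on both strands for the AP-1 element TGANTCA, the E-box CACGTG, the GC box CCGCCC and the TATA box TATAAA. The M-box TCATGTG was searched too, since MITF, TFEB and TFE3 are known to bind this and the E-box. Matches within the 90 bases shown are in capitals. Mmp14 and Timp2 went in opposite directions, Mmp12 and Adam8 rose together, and Adamts1 stood out at 4 months. The stretches are chr14:54431508-54431597 (plus strand) for Mmp14, chr11:118355412-118355501 (minus) for Timp2, chr9:7347284-7347373 (plus) for Mmp12, chr7:139992563-139992652 (minus) for Adam8 and chr16:85803114-85803203 (minus) for Adamts1.
Mmp14: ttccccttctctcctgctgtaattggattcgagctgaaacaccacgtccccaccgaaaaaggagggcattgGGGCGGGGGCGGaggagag
Timp2: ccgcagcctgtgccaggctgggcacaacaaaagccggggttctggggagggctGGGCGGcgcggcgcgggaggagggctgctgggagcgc
Mmp12: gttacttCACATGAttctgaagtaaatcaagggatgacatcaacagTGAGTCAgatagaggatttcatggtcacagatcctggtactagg
Adam8: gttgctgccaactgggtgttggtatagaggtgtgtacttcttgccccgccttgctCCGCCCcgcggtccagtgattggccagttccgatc
Adamts1: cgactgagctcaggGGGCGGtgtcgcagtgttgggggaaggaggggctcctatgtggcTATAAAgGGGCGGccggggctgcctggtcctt
The Mmp12 stretch, at the start the counted transcript uses, held the AP-1 letters 44 bases and the M-box letters, in reverse, 83 bases before the start. Among 32851 promoters of the table, 6.75% held TGANTCA, 3.25% TCATGTG, 6.02% CACGTG, 32.7% CCGCCC and 12.4% TATAAA in a window of this length. None of the 7 members held CACGTG there, and TCATGTG was found in Mmp12 alone, whose other RefSeq start held neither. GC box letters were found in Mmp14 (2), Timp2 (1), Adam8 (1), Adamts1 (3, of which 1 lies before the stretch shown), Timp1 (1) and Timp3 (1). A match is a description of the letters, not a site in use, and no match says only that these letters are not in this window.

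Mmp14, the membrane-type metalloproteinase (NM_008608, chromosome 14, 54431598 to 54442456, plus strand, mm10), had the lower level in every SgshKO library. At 3 weeks the WT libraries held 60.4, 60.1 and 64.0 CPM and the SgshKO libraries 16.2, 12.9, 18.0 and 14.5 CPM. At 4 months they held 72.5 and 84.7 CPM against 24.6 and 23.7 CPM. At 8 months the WT libraries held 82.5, 88.1, 89.8 and 90.1 CPM, and the 7 SgshKO libraries 21.8 to 37.4 CPM with a median of 28.3 CPM. The groups did not overlap at any age: the highest SgshKO library was below the lowest WT library of all ages. The level was 4.01-fold lower at 3 weeks (log2 fold change -2.002, SE 0.15, adjusted p = 1.06e-09), 3.26-fold lower at 4 months (-1.70, SE 0.19, adjusted p = 8.18e-07) and 3.08-fold lower at 8 months (-1.62, SE 0.11, adjusted p = 2.47e-11). A change of the genotype difference between 3 weeks and 8 months did not pass the test (0.38 on the log2 scale, SE 0.19, adjusted p = 0.229). Within each genotype Mmp14 rose with age: between 3 weeks and 8 months by 0.51 in WT (adjusted p = 0.0251) and by 0.89 in SgshKO (adjusted p = 6.59e-06) on the log2 scale. The WT rise was not called when any of 5 libraries was left out (3-week replicates 1, 2 and 3 and 8-month replicates 3 and 4; adjusted p = 0.0522 to 0.0898), and the SgshKO rise from 3 weeks to 4 months (0.65, adjusted p = 0.00478) was not called without SgshKO 4-month replicate 2 (adjusted p = 0.0556). A list of 8 endothelial and mural genes summed to 15.0 to 31.5 CPM in SgshKO (4 to 6 genes detected) and to 48.3 to 71.5 CPM in WT (3 to 6 detected). Of the 5 that could be tested, 2 were called lower at 3 weeks, 1 lower at 4 months, and 2 higher and 2 lower at 8 months. Over all genes, 9.03%, 19.5% and 40.5% were called at these ages. Most of that sum was Pecam1, with group means of 9.26 to 27.3 CPM in SgshKO and 49.0 to 58.3 CPM in WT, while the endothelial gene Cldn5 and the pericyte gene Rgs5 had group means of at most 0.0173 and 0.135 CPM. The part of such cells in the Mmp14 difference was not tested. In bulk libraries like these, fewer cells of a type and less RNA per cell cannot be told apart.

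Timp2, the inhibitor that also takes part in MMP2 activation (NM_011594, chromosome 11, 118301061 to 118355411, minus strand), went the other way. WT libraries held 608, 653 and 633 CPM at 3 weeks, and SgshKO libraries 1054, 1145, 1344 and 997 CPM. At 4 months the WT libraries held 667 and 610 CPM and the SgshKO libraries 1318 and 1084 CPM. At 8 months WT held 548, 572, 574 and 437 CPM, and SgshKO 1157 to 1459 CPM with a median of 1322 CPM. The lowest SgshKO library was above the highest WT library of all ages. Timp2 was 1.80-fold higher at 3 weeks (log2 fold change 0.85, SE 0.11, adjusted p = 6.22e-06), 1.88-fold at 4 months (0.91, SE 0.14, adjusted p = 4.73e-05) and 2.44-fold at 8 months (1.28, SE 0.09, adjusted p = 4.93e-11). The genotype difference grew by 0.44 between 3 weeks and 8 months (SE 0.14, adjusted p = 0.0457), a call that ended in 13 of the 18 fits that left out 1 library (adjusted p of up to 0.115), without the 4-month libraries (adjusted p = 0.0583) and with the replicate block (adjusted p = 0.138). The gene overlaps Cep295nl on the same strand in the GENCODE annotation, so reads in the shared stretch could not be told apart by strand.

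Per transcript length, Timp2 was the most abundant member in every group of the age series, at group means of 230.4 to 509 TPM (transcript abundance relative to length and library size). Mmp14 had means of 25.0 to 36.2 TPM in WT and 5.99 to 10.6 TPM in SgshKO, and Mmp2 of 21.4 to 38.2 TPM over both genotypes. The ranges of these means overlapped in WT, and in SgshKO every Mmp2 mean was above every Mmp14 mean. Adam8 ran from 1.72 to 12.1 TPM, and Adamts1 from 11.2 to 18.5 TPM outside the 4-month libraries. Mmp9, Mmp12 and Timp3 were below 1 TPM on average at 3 weeks in both genotypes and in WT at 8 months.

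**Figure D2:**
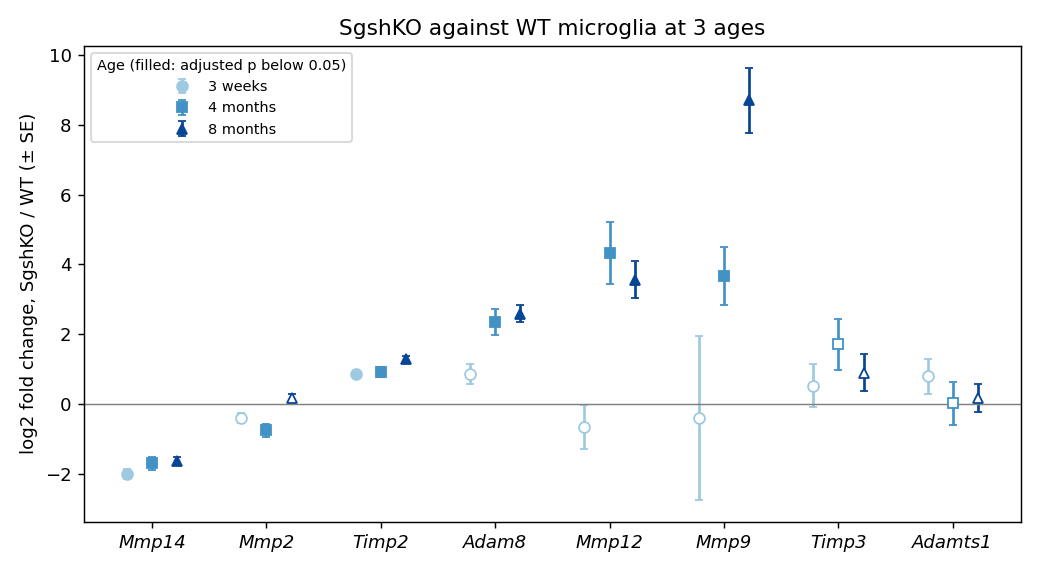
Log2 fold change of SgshKO against WT (y axis, bars are SE) for 8 members (x axis) at 3 weeks, 4 months and 8 months; filled symbols have an adjusted p below 0.05 in edgeR. Mmp14 lies at -2.002, -1.70 and -1.62 and Timp2 at 0.85, 0.91 and 1.28, while Adam8, Mmp12 and Mmp9 are filled at 4 and 8 months and open at 3 weeks.

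Mmp2, the secreted gelatinase that MMP14 activates (NM_008610, chromosome 8, 92827297 to 92853421, plus strand), differed between genotypes at 4 months. WT libraries held 60.5, 59.5 and 63.1 CPM at 3 weeks, 75.5 and 73.9 CPM at 4 months, and 53.3, 36.3, 47.8 and 46.3 CPM at 8 months. SgshKO libraries held 40.7, 48.7, 52.4 and 42.7 CPM at 3 weeks, 52.3 and 36.7 CPM at 4 months, and 38.8 to 60.3 CPM (median 52.2 CPM) at 8 months. The genotypes did not overlap at 3 weeks and 4 months and overlapped at 8 months. At 4 months Mmp2 was 1.68-fold lower in SgshKO (log2 fold change -0.75, SE 0.18, adjusted p = 0.00478), which was not called without SgshKO 4-month replicate 2 (adjusted p = 0.101). The difference was -0.41 (SE 0.14, adjusted p = 0.0669) at 3 weeks, where DESeq2 called it (adjusted p = 0.0358), and 0.17 (SE 0.11, adjusted p = 0.256) at 8 months. The 8-month difference lay 0.57 above that at 3 weeks (SE 0.18, adjusted p = 0.0428), but this call ended in 14 of 18 fits that left out 1 library (adjusted p of up to 0.102), without the 4-month libraries (adjusted p = 0.0504) and with the replicate block (adjusted p = 0.146). In WT, Mmp2 fell by 0.70 on the log2 scale from 4 to 8 months (adjusted p = 0.00697), which was not called without either 4-month library (adjusted p = 0.0836 without replicate 1 and 0.0731 without replicate 2).

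Mmp9, the other gelatinase (NM_013599, chromosome 2, 164948219 to 164955850, plus strand), was close to 0 in both genotypes at 3 weeks, with 5, 0 and 0 counts in WT and 1, 1, 3 and 0 counts in SgshKO. At 4 months it stood at 4.96 and 7.53 CPM in WT and at 45.2 and 116 CPM in SgshKO. At 8 months the WT libraries held 3, 1, 0 and 1 counts, while the SgshKO libraries held 45.4, 24.2, 97.9, 18.5, 31.4, 5.99 and 15.1 CPM. Every SgshKO library was above every WT library at 4 months and at 8 months. The log2 fold change was 3.67 at 4 months (SE 0.83, adjusted p = 0.00234) and 8.71 at 8 months (SE 0.94, adjusted p = 4.94e-08); the latter rests on 5 counts in 4 WT libraries, so its size depends on the prior count of the model. The neutrophil list was high in the same SgshKO libraries. Over the 7 SgshKO libraries of 8 months, log2(CPM + 1) of Mmp9 and of the summed neutrophil list had Pearson's r = 0.91 (exact two-sided permutation p = 0.00397, adjusted over 9 such relations 0.0119) and Spearman's rho = 0.82 (exact permutation p = 0.0341, adjusted 0.0768). Without the 2 libraries farthest from the median of the list, r was 0.89 over 5 libraries. The list does not contain Mmp9, but both values come from the same library and share its scaling. The part of these cells in the Mmp9 difference was not tested.

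The WT libraries of 4 months are an exception, since they held Mmp9 at 4.96 and 7.53 CPM with the neutrophil list at 7.33 and 0.932 CPM. Mmp9 rose from 3 weeks to 4 months in WT (log2 5.84, adjusted p = 0.00574) and fell again to 8 months (log2 -6.27, adjusted p = 0.00218). The rise was not called without WT 4-month replicate 2 (adjusted p = 0.0903). The dissociation list summed to 17790 and 23341 CPM in these libraries, and its part in the Mmp9 level was not tested.

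Mmp12, the macrophage elastase (NM_001320076, chromosome 9, 7347374 to 7360461, plus strand), was low in WT at every age: 1.54, 0.843 and 2.07 CPM at 3 weeks, 0.118 and 0.861 CPM at 4 months, and 0.624, 1.31, 1.09 and 2.03 CPM at 8 months. SgshKO libraries held 1.47, 0.761, 0.678 and 0.731 CPM at 3 weeks, which overlapped with WT. At 4 months they held 17.6 and 5.07 CPM, and at 8 months 12.7, 5.61, 8.50, 10.3, 12.4, 40.4 and 13.3 CPM, all above every WT library. The log2 fold change was 4.33 at 4 months (SE 0.89, adjusted p = 0.00106) and 3.57 at 8 months (SE 0.53, adjusted p = 6.40e-06). The genotype difference was larger than at 3 weeks by 4.99 at 4 months (SE 1.09, adjusted p = 0.0134) and by 4.23 at 8 months (SE 0.81, adjusted p = 0.00115). The first of these was not called without WT 4-month replicate 1 (adjusted p = 0.1005) or SgshKO 4-month replicate 1 (adjusted p = 0.0560). The neutrophil list was high in the same groups, at 2807 to 13928 CPM at 4 months and 405 to 5463 CPM (median 702 CPM) at 8 months. No relation between Mmp12 and this list over libraries was computed, and the part of neutrophils in the Mmp12 difference was not tested. A list of 6 monocyte genes summed to 375 to 1471 CPM at 4 months and 69.0 to 495 CPM at 8 months in SgshKO. In WT libraries of the age series it summed to at most 25.2 CPM. Of these 6 genes, 3 were called higher at 4 months and 4 at 8 months, where 19.5% and 40.5% of all genes were called. The part of monocytes in the Mmp12 difference was not tested either. Against the monocyte list (Ly6c2, Ccr2 and others), r was -0.33 over the 7 libraries (exact permutation p = 0.460, adjusted 0.460; rho -0.43, p = 0.354, adjusted 0.501; r -0.62 without 2 libraries).

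Adam8, a membrane-bound disintegrin and metalloproteinase of immune cells (NM_001291066, chromosome 7, 139978932 to 139992562, minus strand), held 2.52 to 6.28 CPM in the 9 WT libraries of all ages. SgshKO libraries held 6.46, 6.04, 6.29 and 6.14 CPM at 3 weeks, 14.7 and 22.8 CPM at 4 months, and 17.1 to 35.9 CPM (median 24.5 CPM) at 8 months. The genotypes did not overlap within any age. The gene overlaps Gm16201 on the opposite strand at its end. The level was 5.10-fold higher at 4 months (log2 fold change 2.35, SE 0.37, adjusted p = 6.38e-05) and 6.01-fold higher at 8 months (2.59, SE 0.24, adjusted p = 3.64e-09). At 3 weeks the difference of 0.86 (SE 0.28) did not pass with edgeR (adjusted p = 0.0605) and passed with DESeq2 (adjusted p = 0.0335). It was larger at 8 months than at 3 weeks by 1.73 (SE 0.36, adjusted p = 0.00242). Within the 7 SgshKO libraries of 8 months, Adam8 against the neutrophil list had r = 0.59 (exact permutation p = 0.166, adjusted 0.299; rho 0.29, p = 0.556, adjusted 0.625), and r became -0.85 without the 2 farthest libraries. The part of these cells in the Adam8 difference was not tested.

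Between 3 weeks and 4 months the change of the genotype difference was called for 1 of 8 members (2.52% of all genes), between 3 weeks and 8 months for 4 (9.25%), and between 4 and 8 months for none (0.391%; 2 without the filter on low counts and 1 with DESeq2). With the 4-month libraries left out of the fit, 2 of the 4 remained called, Adam8 and Mmp12. In WT, 3 members rose between 3 weeks and 4 months (5.21% of all genes were called), 4 fell between 4 and 8 months (5.77%), and 1 differed between 3 weeks and 8 months (7.65%). In SgshKO, 6 rose between 3 weeks and 4 months (32.7%), 2 fell between 4 and 8 months (19.8%), and 4 rose between 3 weeks and 8 months (30.6%). These comparisons share groups with each other and with those between genotypes.

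Adamts1, a secreted protease that cuts proteoglycans such as versican and aggrecan (NM_009621, chromosome 16, 85793828 to 85803113, minus strand), peaked in the 4-month libraries of both genotypes. WT libraries held 21.2, 36.8 and 47.9 CPM at 3 weeks, 313 and 459 CPM at 4 months, and 40.6, 46.1, 46.1 and 58.0 CPM at 8 months. SgshKO libraries held 161, 13.5, 19.2 and 48.6 CPM at 3 weeks, 361 and 422 CPM at 4 months, and 34.6 to 74.9 CPM (median 51.0 CPM) at 8 months. The 4-month libraries were above all others, and SgshKO 3-week replicate 1 came next. The rise in WT was 3.45 on the log2 scale (SE 0.59, adjusted p = 0.000783) and the fall to 8 months -3.02 (SE 0.52, adjusted p = 0.00108); in SgshKO they were 2.68 (adjusted p = 0.000364) and -2.87 (adjusted p = 0.000123). The dissociation list was highest in the same 5 libraries. Over the SgshKO libraries of 8 months, where none of these 5 takes part, Adamts1 and the list had r = 0.87 (exact permutation p = 0.00714, adjusted 0.0161; rho 0.89, p = 0.0123, adjusted 0.0461; r 0.83 without 2 libraries). In the SgshKO ASO libraries r was -0.41 with ntc and -0.44 with the combined Mitf and Tfe3 ASOs. The part of the dissociation response in the Adamts1 level was not tested. Without SgshKO 3-week replicate 1, the change from 3 weeks to 8 months in SgshKO turned from -0.19 (adjusted p = 0.761) to 0.99 (adjusted p = 0.0159).

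Timp3, the matrix-bound inhibitor (NM_011595, chromosome 10, 86300412 to 86349505, plus strand), had the same timing. It held 0.421 to 0.949 CPM in WT at 3 weeks, 6.74 and 5.02 CPM at 4 months and 0.425 to 0.873 CPM at 8 months. In SgshKO it held 1.57, 0.428, 0.774 and 1.53 CPM at 3 weeks, 8.19 and 30.1 CPM at 4 months, and 0.416 to 2.34 CPM (median 0.813 CPM) at 8 months. The rise to 4 months was called in WT (log2 2.96, adjusted p = 0.0124) and SgshKO (4.14, adjusted p = 2.36e-05), as was the fall to 8 months (-3.28, adjusted p = 0.00319, and -4.09, adjusted p = 1.63e-05). The WT rise was not called without WT 3-week replicate 1 (adjusted p = 0.0622), WT 4-month replicate 1 (0.0964) or replicate 2 (0.0610), or with the replicate block (adjusted p = 0.0524). The gene lies within Syn3, which runs on the opposite strand. The genotype difference at 4 months did not pass the test (1.71, SE 0.73, adjusted p = 0.109; 2.32 and adjusted p = 0.0438 without SgshKO 4-month replicate 1).

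Timp3 was high where the choroid plexus genes were high, and their part in its level was not tested. In the SgshKO ASO libraries the choroid plexus list summed to 1113 to 4580 CPM and Timp3 to 9.85 to 42.3 CPM, whereas the WT ASO libraries held 3.14 to 51.7 CPM of that list, with 2 of its 3 genes listed, and Timp3 was not listed. Within the 8 SgshKO libraries with ntc, r between Timp3 and the list was 0.93 (exact permutation p = 0.00144, adjusted 0.00647; rho 0.83, p = 0.0154, adjusted 0.0461; r 0.76 over 6 libraries without the 2 farthest). Within the 8 with the Mitf and Tfe3 ASOs, r was 0.97 (exact permutation p = 0.000446, adjusted 0.00402; rho 0.86, p = 0.0107, adjusted 0.0461; r 0.85 over 6). In the 7 SgshKO libraries of 8 months it was 0.32 (exact permutation p = 0.438, adjusted 0.460; rho 0.54, p = 0.236, adjusted 0.424; r 0.13 without 2 libraries), where Timp3 stayed at or below 2.34 CPM. For Adamts1 and the dissociation list, the same relation in the SgshKO ASO libraries was -0.41 with ntc (exact permutation p = 0.317, adjusted 0.408; rho -0.36, p = 0.389, adjusted 0.501; r 0.020 without 2) and -0.44 with the combination (p = 0.302, adjusted 0.408; rho -0.14, p = 0.752, adjusted 0.752; r 0.23 without 2), at list sums of 290.3 to 479 CPM. A number called grp divides the SgshKO ASO libraries into 2 sets of 4 per treatment. With grp means removed and libraries exchanged within grp only, a check added after seeing the data, r between Timp3 and the choroid plexus list was 0.93 with ntc (exact permutation p = 0.0243, adjusted over 4 relations 0.0486) and 0.99 with the combination (p = 0.00347, adjusted 0.0139). For Adamts1 and the dissociation list it was -0.41 (exact permutation p = 0.424, adjusted 0.565) and -0.16 (p = 0.847, adjusted 0.847).

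**Figure D3:**
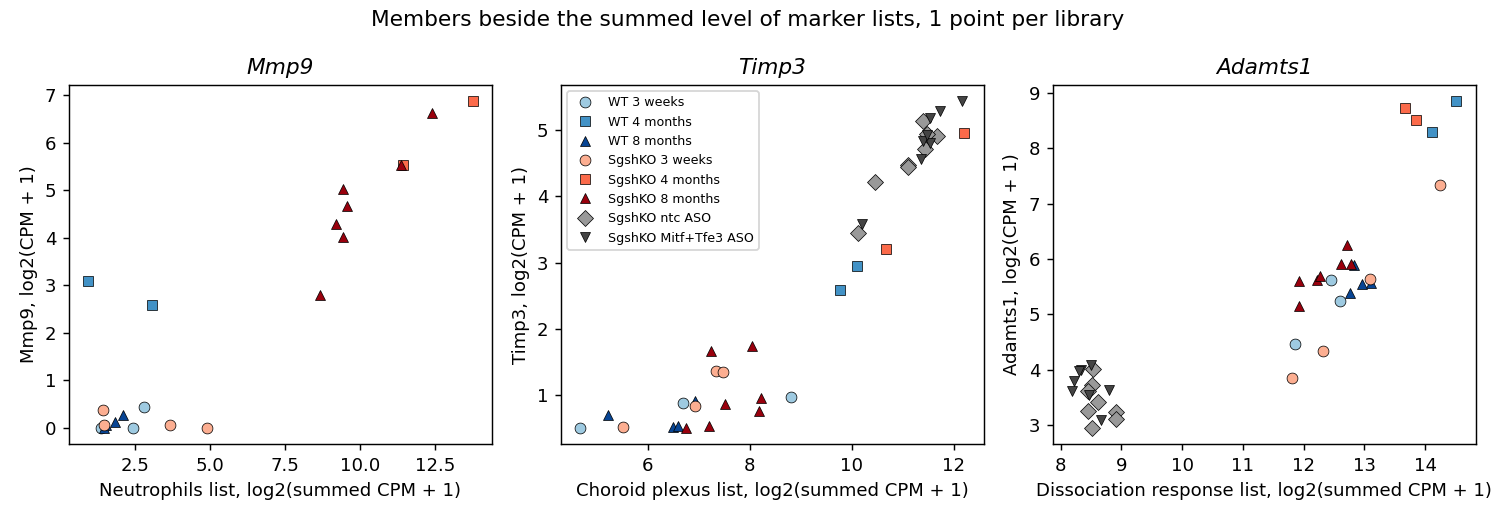
Level of Mmp9, Timp3 and Adamts1 (y axes, log2(CPM + 1)) against the summed CPM of the neutrophil, choroid plexus and dissociation lists (x axes, log2(sum + 1)); each point is 1 library, with groups by colour and shape, and the SgshKO ASO libraries in grey where the gene is listed. The WT 4-month libraries hold Mmp9 at 4.96 and 7.53 CPM with a neutrophil list of 7.33 and 0.932 CPM, apart from the SgshKO libraries, in which both are high.

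Timp1 (NM_001294280, chromosome X, 20870166 to 20874737, plus strand), an inhibitor of most metalloproteinases, was listed at 0 in all 22 libraries and was in neither ASO table. A 0 in this file is not a measure of absence: 3898 genes are listed at 0 throughout, and 16 of these are listed with counts in the SgshKO ASO table, among them Vamp7 with a mean of 705 counts. Timp1 lies within Syn1, which runs on the opposite strand, and the counting rule is not given in the sources used here.

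Since other proteases and their partners act on the same substrates, lists of them were examined by their counts. Over all 14309 genes, 9.03% were called between genotypes at 3 weeks, 19.5% at 4 months and 40.5% at 8 months. As with the members, low genes of these lists passed the filter on low counts through the groups in which they were high. The shares called in the lists are therefore given as a description only. Of 16 other metalloproteinase genes, 9 could be tested; 1 was lower at 3 weeks (Mmp15), 2 were higher and 1 lower at 4 months, and 3 were higher and 4 lower at 8 months. At 8 months 77.8% of those tested were called, and their median log2 fold change was 0.24, against 0.02 over all genes. The higher ones were Mmp8, the neutrophil collagenase (17.8 CPM ± 16.7, SD, n = 7, against 0.0485 CPM ± 0.0970, n = 4; adjusted p = 1.06e-07), Mmp25, the membrane-type enzyme of leukocytes (5.41 CPM ± 5.37 against 0.822 CPM ± 0.432; adjusted p = 0.00141), and Mmp13, a collagenase at 0.223 CPM ± 0.351 with no count in WT (adjusted p = 0.0486). Mmp8 is also on the neutrophil list. The lower ones with the largest fold changes were Mmp28 (log2 -2.22, 4.403 CPM ± 1.77 against 20.6 CPM ± 6.04), Mmp11 (-2.07) and Mmp23 (-1.92).

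Of 29 other ADAM and ADAMTS genes 12 could be tested, of which 3 were higher and 3 lower at 8 months (median -0.10). This is 50% of those tested, against 40.5% of all genes. Adam19 (log2 6.70, from 0.0118 CPM ± 0.0236 to 2.27 CPM ± 1.70), Adam9 (0.59) and Adam22 (0.53) were higher. Adamts16 (-1.01), Adam10, a main sheddase of cell-surface proteins (-0.40), and Adam15 (-0.29) were lower. At 3 weeks only Adam15 was called, and at 4 months 2 were higher and 1 lower.

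Of 18 activators, inhibitors and partners 15 could be tested: 4 were higher and 1 lower at 3 weeks, 7 and 1 at 4 months, and 9 and 1 at 8 months. The median at 8 months was 0.71, and 66.7% of those tested were called, against 40.5% of all genes. This share too includes genes near 0 in WT, such as Lcn2, that were high in SgshKO. Hpse, which encodes the heparan sulfate endoglycosidase heparanase, rose from 0.160 CPM ± 0.135 (SD, n = 4) to 167.8 CPM ± 10.8 (n = 7; log2 10.21, adjusted p = 3.11e-16) at 8 months. Lcn2, whose product binds MMP9, rose from 0.222 CPM ± 0.143 to 126.0 CPM ± 138 (adjusted p = 1.74e-07), and Cd44, a cell-surface anchor of MMP9 and MMP14, from 1.01 CPM ± 0.329 to 21.6 CPM ± 12.7 (adjusted p = 1.82e-08). The neutrophil list summed to 405 to 5463 CPM in these SgshKO libraries, and the part of neutrophils in the Lcn2 difference was not tested. Rhbdf1, a partner of the sheddase ADAM17, was the lower one (log2 -0.75, adjusted p = 1.65e-05). Of 17 matrix substrates 15 could be tested, with 2 higher and 1 lower at 3 weeks and at 4 months and 5 higher and 2 lower at 8 months (median 0.68). The share called at 8 months was 46.7% of those tested, near the 40.5% of all genes. At 8 months fibronectin, Fn1 (3.43, also on the monocyte list), laminin beta 1, Lamb1 (2.52), and syndecan 3, Sdc3 (1.76) were higher, and agrin, Agrn (-0.54), and Sparc (-0.37) were lower.

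The ASO experiment asked how microglia respond when the lysosomal transcription factors MITF, TFEB and TFE3 are lowered. In WT microglia the Mitf ASO lowered Mmp14 and raised Timp2, the directions in which SgshKO differed from WT, and the Tfe3 ASO raised Timp2. Of the 8 microglial genes, 3 were called lower with the Mitf ASO, and their sum was 57913 to 60160 CPM against 61374 to 64783 CPM with ntc, without overlap. With the Tfe3 ASO 1 was called higher and 1 lower, at sums of 61954 to 62960 CPM. The part of this shift in the member changes was not tested. The Mitf ASO changed 2 of 5 members (11% of 10277 genes were called), the Tfe3 ASO 1 (2.16%) and the Tfeb ASO none (0.778%; no member had an adjusted p under 0.436). The ntc ASO against PBS gave no call for any gene (0%; 415 genes at an unadjusted p under 0.05 in edgeR; 2 genes by DESeq2, neither a member).

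Mmp14 held 47.6, 43.8, 43.5 and 43.3 CPM with ntc in grps 1 to 4, and 38.5, 26.9, 37.3 and 31.6 CPM with the Mitf ASO. The Mitf libraries were all below the ntc libraries (log2 fold change -0.42, SE 0.08, adjusted p = 0.00357). With the Tfeb ASO Mmp14 held 50.3, 50.3, 46.1 and 49.7 CPM (0.14, adjusted p = 0.436), and with the Tfe3 ASO 46.8, 35.9, 35.8 and 38.4 CPM (-0.19, adjusted p = 0.258), both overlapping with ntc. PBS libraries held 65.7, 45.7, 56.3 and 55.3 CPM. The ntc libraries overlapped with them and lay 0.32 lower on the log2 scale, which was not called by edgeR (adjusted p = 1.0). With PBS replicate 4 put in grp 3 the difference was -0.31 (adjusted p = 0.343 in edgeR). Of the 5 members tested for ntc against PBS, 2 had an unadjusted p below 0.05 in edgeR, so a smaller shift with the control is not excluded. Timp2 held 907, 815, 934 and 786 CPM with ntc, and 997, 998, 1004 and 1001 CPM with the Mitf ASO, above every ntc library (0.22, SE 0.05, adjusted p = 0.00970). It held 1100, 1039, 1073 and 1002 CPM with the Tfe3 ASO, again without overlap (0.29, SE 0.05, adjusted p = 0.00532). The model holds grp, the number that pairs the treatments; without this replicate block none of the 3 was called (adjusted p = 0.0771 for Mmp14 and 0.0812 for Timp2 with the Mitf ASO, 0.0552 for Timp2 with the Tfe3 ASO). Mmp2, Mmp12 and Adamts1 were not called with any of these ASOs, and Mmp12 held 2.03 to 3.67 CPM over the 20 libraries.

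In SgshKO microglia the combined Mitf and Tfe3 ASOs changed 1 of 6 members (9.33% of 10589 genes were called), and it was Mmp14, which rose. With ntc Mmp14 held 11.3 to 16.3 CPM (median 13.8 CPM, n = 8) and with the combination 13.8 to 21.9 CPM (median 18.0 CPM, n = 8). The groups overlapped, and the log2 fold change was 0.39 (SE 0.10, adjusted p = 0.0212). Of the 8 microglial genes, 2 were called higher with the combination. The Mmp14 difference was 0.35 in grp 1 alone (adjusted p = 0.178), 0.43 in grp 2 alone (adjusted p = 0.0782), and 0.30 with the authors' batch-corrected signal (adjusted p = 0.118). The direction was thus the same in both grps, and opposite to that of the Mitf ASO in WT; the difference between the genotypes was not tested, since the tables were deposited separately. Timp2 held 1245 to 1437 CPM with ntc and 1271 to 1465 CPM with the combination (0.07, SE 0.04, adjusted p = 0.255; 0.30 with adjusted p = 0.000294 on the batch-corrected signal). Timp3 (0.32, adjusted p = 0.438), Adamts1 (0.32, adjusted p = 0.236), Mmp2 (-0.06, adjusted p = 0.499) and Mmp12 (-0.27, adjusted p = 0.429) were not called.

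**Figure D4:**
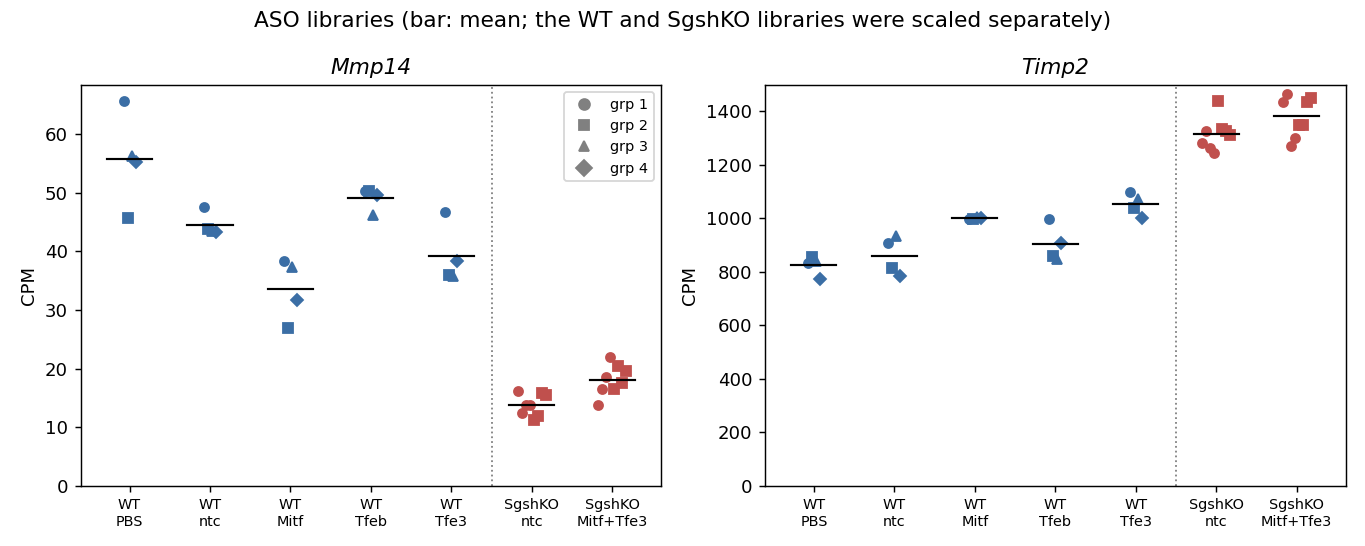
Mmp14 and Timp2 (y axes, CPM from 0) in each ASO library by treatment (x axis); shapes give grp, bars are means, WT is blue and SgshKO red. In WT the Mitf ASO libraries lie at 26.9 to 38.5 CPM of Mmp14, below the 43.3 to 47.6 CPM of ntc, and in SgshKO the combination lies at 13.8 to 21.9 CPM against 11.3 to 16.3 CPM; the WT and SgshKO tables were scaled separately.

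Of the partner lists, the combination lowered 3 of 14 genes tested and raised none, where 9.33% of all genes were called. Among the lowered were Hpse (log2 -1.03, from 148.1 to 72.4 CPM, adjusted p = 5.59e-05) and the urokinase receptor Plaur (-0.53, adjusted p = 0.000452). It raised 3 of 8 matrix substrates, Lamb1 (0.78), Sdc3 (0.43) and Sparc (0.37), and lowered Sdc4 (-0.46). None of 3 other metalloproteinases and 7 other ADAM and ADAMTS genes was called. In WT the Mitf ASO lowered Mmp28 and Mmp11, 2 of 3 other metalloproteinases, and raised Adam9, 1 of 7, and Serpine2 and Bsg, which encodes the metalloproteinase inducer basigin, 2 of 11. Over all genes 11% were called with this ASO.

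As a description over the 22 libraries of the age series, which share genotype, age and scaling, log2 CPM of Mmp14 and Timp2 had r = -0.86, that of Mmp12 and Adam8 0.85, that of Timp3 and Adamts1 0.84, and those of Adam8 with Mmp9 and with Timp2 0.82 and 0.81. Mmp2 had its highest r with another member at 0.37 (Mmp14). Among all genes tested, the pattern most like that of Timp2 was that of Lamp1, a lysosomal membrane protein (r = 0.99), followed by Mpeg1 and Dusp27 (0.98 and 0.97). Agrn (0.93) and Csmd3 (0.92) were among the 3 genes most like Mmp14, and Adam8 was most like Dna2, Aplp2 (0.97 and 0.96) and 4933431E20Rik (0.96). For Mmp9 these were Itgb2l, Hdc and Cybb (0.96, 0.95 and 0.94), for Mmp12 Mamdc2, Cxcl14 and Inf2 (0.91, 0.91 and 0.90), and for Timp3 2900040C04Rik, Cntn1 and Nebl (0.93, 0.92 and 0.92). Adamts1 was most like Klf6, Hspa5 and Ppp1r15a (0.96, 0.94 and 0.93). For Mmp2 they were Nfxl1, Map2k1 and Chst11, all at 0.68.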

How the data were processed

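PolyA RNA-seq of sorted mouse microglia was available as raw counts for 22 age-series, 20 WT ASO and 16 SgshKO ASO libraries. The authors deposited raw counts per gene in 3 tables, TPM of the age series, and for each ASO set a normalised, batch-corrected signal whose method is not given in the sources used here. Per the submitters' processing notes, STAR 2.5.3a, kallisto 0.44.0, HOMER 4.11, DESeq2 1.36.0 and R 4.2.3 were used with build mm10; which step each served is not stated there. Libraries were dUTP-stranded and single-end, per the labels' protocols. TPM and batch-corrected signal served as alternatives only.

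The deposited counts went through TMM scaling, a low-count filter (filterByExpr, minimum 10) and the quasi-likelihood F test of edgeR 4.0.16 under R 4.3.3, with 1 model per table and Benjamini-Hochberg adjustment over all genes tested (14309, 10277 and 10589) at a threshold of 0.05. The age model held 6 genotype and age groups, and the ASO models treatment and grp. CPM are counts scaled by library size and TMM factor. The SE is the absolute log2 fold change divided by the square root of F and so restates the test. The script was tested on simulated data. All 9 members were described whatever their values, and from the gene lists at most 3 higher and 3 lower genes with the largest fold change called at 8 months, at most 3 per list called in the SgshKO ASO comparison, and the 3 genes most correlated with each member; genes named from the lists at other ages and in the WT ASO comparisons go beyond that rule and were chosen after their values were seen. Some genes that this rule names are not reported here. The members and lists were chosen with earlier results of these data known.

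Same-numbered libraries correlated, after removal of group means, with r of -0.171 to 0.115 in the age series (9 pairs), which was therefore not blocked. In the WT ASO libraries r was -0.0333 to 0.640, over 0.1 in 38 of 40 pairs, and grp, given in the titles, was kept as the block. In the SgshKO ASO libraries r was 0.259 to 0.746 in 8 of 8 pairs, which includes what libraries of 1 grp share; the replicate block there changed no call of a member. PBS replicate 4 has grp 4 in its title and 3 in its column name, and was put in grp 4. Alternatives were RLE factors, no filter on low counts, DESeq2 1.42.0, fits without each library, the block or its omission, and the deposited TPM or batch-corrected signal as log2(value + 1) with limma 3.58.1 (TPM above 1 in at least 2 libraries). Added after seeing the data were fits without the 4-month libraries, without WT grp 1, with each SgshKO grp alone and with PBS replicate 4 in grp 3, and relations to marker lists with grp means removed.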

Additional observations from a re-analysis of the deposited data

Results flagged for a closer look

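Over 61 combinations of a member and a group of 4 to 8 libraries, 9 had a library far from the others of its group. The rule flags about 1 in 20 for independent values with a normal spread. CPM near 0 need not have that spread, and the combinations share libraries, so no excess over chance is read from this count. In the age series, Mmp12 was 40.4 CPM in SgshKO 8-month replicate 6, where the others held 5.61 to 13.3 CPM, and 1.47 CPM in SgshKO 3-week replicate 1 against 0.678 to 0.761 CPM. Mmp9 was 97.9 CPM in SgshKO 8-month replicate 3, the library with the highest neutrophil sum of its group (5463 CPM), and 0.290 CPM, or 3 counts, in SgshKO 3-week replicate 3. Among the ASO libraries, Adamts1 was 14.2 CPM in PBS replicate 1 against 5.39 to 5.72 CPM, and that library also had the highest dissociation list sum of the WT ASO libraries, 887 CPM. Mmp14 was 47.6 CPM in ntc replicate 1 of WT and 46.1 CPM in Tfeb ASO replicate 3, Mmp2 was 50.9 CPM in Tfe3 ASO replicate 3, and Timp2 was 1437 CPM in SgshKO ntc grp 2 replicate 1.

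The SgshKO effect differed between ages by the test of the difference itself for 4 members. On the log2 scale it was larger than at 3 weeks by 4.99 for Mmp12 at 4 months and, at 8 months, by 4.23 for Mmp12, 1.73 for Adam8, 0.57 for Mmp2 and 0.44 for Timp2. For Mmp9 the change to 8 months was not called in the main edgeR fit. DESeq2 called it (9.12, adjusted p = 1.65e-06), as did limma on the deposited TPM (adjusted p = 0.00159). So did edgeR without the filter on low counts (0.0187) and with the replicate block (0.0223), and 1 of 18 fits that left out 1 library. With limma on the deposited TPM the Mmp2 and Timp2 calls ended (adjusted p = 0.0977 and 0.0724). The Mmp2 effect went from -0.41 to 0.17, neither called on its own by edgeR; DESeq2 called the first (adjusted p = 0.0358), as did the deposited TPM (0.0397), the fit without the filter on low counts (0.0457) and that without SgshKO 3-week replicate 3 (0.0488).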

How the results depend on the processing

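Over 42 called member results, all 591 values under the alternatives kept the sign, and 534 were still called. DESeq2 gave no adjusted p for some member results. These are not among the 591, and they count as not called in the numbers of calls below. Without the filter on low counts, 4 members were called at 3 weeks, 2 for the change of effect to 4 months, 2 for that from 4 to 8 months and 2 for WT at 8 months against 3 weeks. DESeq2 gave 4, 2, 1 and 2 for these, and 1 for SgshKO at 8 against 4 months. The deposited TPM gave 2 for the change of effect to 4 months. The replicate block gave 1 for the change from 4 to 8 months (Mmp9), and no replicate block gave 0 with the Mitf and 0 with the Tfe3 ASO. Chosen after seeing the data, the age fit without the 4-month libraries gave 2 for the change of effect to 8 months, and grp 1 or grp 2 alone gave 0 each for the combined ASOs. Leaving out 1 library gave 0 to 1 for the change of effect to 4 months, 2 to 4 for that from 3 weeks to 8 months, 0 to 1 for that from 4 to 8 months, 1 to 3 for WT at 4 months and 0 to 2 at 8 months against 3 weeks, 2 to 3 at 3 weeks between genotypes, 5 to 7 at 4 months, and 2 to 3 for SgshKO at 8 against 4 months. Adamts1 in SgshKO at 8 months against 3 weeks ranged from -0.53 to 0.99, reversing without SgshKO 3-week replicate 1. The cause was not tested. Removing grp means left the 4 relations to marker lists in the SgshKO ASO libraries on the same side of the threshold. Over all genes, no replicate block gave 211 calls against 1128 with the Mitf, 9 against 80 with the Tfeb and 29 against 222 with the Tfe3 ASO, and the fits without WT grp 1 gave 681 with the Mitf and 140 with the Tfe3 ASO. For the combination, 452 genes against 988 were called without grp as a term, 192 in grp 1 alone and 430 in grp 2 alone. DESeq2 called 213 genes with the Tfeb and 403 with the Tfe3 ASO, 685 against 361 for the change of effect to 4 months and 163 against 56 for that from 4 to 8 months, where no filter gave 131, the replicate block 21 and TPM 86. TPM gave 681 for the change to 4 months, the batch-corrected signal 145 with the Tfeb ASO and 1 for ntc against PBS, and the replicate block 1406 against 2832 for SgshKO at 8 against 4 months. Limits: 4 months has 2 libraries per genotype, and Mmp9 and Timp3 rest on few counts outside their high groups.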

Other observations

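In the SgshKO ASO libraries, 5 of the 10 neutrophil genes were listed. Their sum was 65.4 to 516 CPM with ntc and 72.4 to 329 CPM with the combination in grp 2, and 1.03 to 2.87 CPM and 0.996 to 38.5 CPM in grp 1. Mmp9 and Adam8 were not in that table. Border macrophage genes (Mrc1, Pf4 and others) summed to 56.3 to 121.0 CPM in SgshKO and 9.34 to 75.8 CPM in WT libraries of the age series.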
